A study of Bos taurus with 6 samples.

Results

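The collagen chains are the genes whose symbol reads COL, a number, A and a number, and 39 of the 25444 genes in the mRNA count table carry such a symbol. The match was made on the whole symbol, so that COL4A3BP, which encodes a ceramide transfer protein, was left out. A table of cattle genes from RefSeq lists all 39 symbols. Of the 39 chains, 37 had at least 1 read counted in either library and were tested, while COL9A1 and COL9A2 were listed at 0 in both. More than 3 counts in a library were reached by 32 chains, and fold changes are given for these alone.

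The intramuscular fat (IMF) was dissected from the sternomandibularis muscle, a neck muscle, of male Chinese Qinchuan cattle slaughtered at 24 months. Steers (castrated males, called CM in the labels) had been castrated surgically at 6 months, and bulls (intact males, IM) had not. All animals were weaned at 3 months and received the same diet, and the study's methods state that they had 1 sire. Total RNA was pooled within each group into 1 mRNA library, with 6 animals per pool according to the series design and 3 according to the sample labels, so the spread between animals is not visible. The library of steers held 12677375 counts and that of bulls 9868415. Adipocyte markers were counted in both, with the 6 listed genes found in the table taking 0.232% of counts in steers against 0.336% in bulls, and 12 skeletal muscle genes took 0.288% and 0.528%.

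Collagens are proteins of the extracellular matrix whose chains wind around each other in a helix. Fibrillar collagens form the fibres that carry load, basement membrane collagens form the sheet that surrounds each adipocyte, muscle fibre and vessel, microfibrillar collagen VI forms beaded filaments near cells, and fibril-associated collagens sit on the surface of fibres. In muscle and in fat, fibroblasts and adipocyte precursors are main producers of these proteins, and the matrix is remodelled as fat cells enlarge. The comparison asks how the counts of these chains differed in IMF between steers and bulls.

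Collagen chains took 11.64% of all counts in steers (95% Clopper-Pearson interval 11.62 to 11.65) and 6.90% in bulls (6.88 to 6.92). Chains with many reads were mostly higher in steers, and those with few reads were more often lower. Of the 17 chains with at least 1000 counts in either library, 16 lay above 0 on the log2 scale and 5 were called higher in steers, while COL12A1 was the single one below 0. Genes with as many counts lay above 0 more often in general, 68.9% of 1865, compared with 50.6% of all genes tested. Of the 15 chains with fewer counts but more than 3, 8 were called lower in steers and 1, COL21A1, higher. Of all 13658 genes in that range of counts, 9.88% were called lower and 4.98% higher.

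A gene was called when the exact binomial test on its 2 counts gave an adjusted p under 0.05 and the log2 fold change, steers over bulls, was over 1 or under -1. Libraries were scaled by median-of-ratios size factors. With 1 pooled library per group this test compares the 2 libraries, not castrated with intact animals, and the intervals below, at 95%, cover the error of counting alone, because each group is 1 pooled library with no spread between animals. Reads copied from the same molecule would make them too narrow. Reads counted on a gene are given with steers first. Of the 37 chains tested, 6 were called higher and 8 lower in steers, against 4.37% and 8.13% of all 17752 genes tested. Among all genes with at least 1000 counts in either library, 5.15% were called higher and 5.09% lower. The median log2 fold change of the chains was 0.27, compared with 0.01 over all genes tested. For the 17 chains with many counts it was 0.93, compared with 0.19 over the 1865 genes with as many counts.

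**Figure D1:**
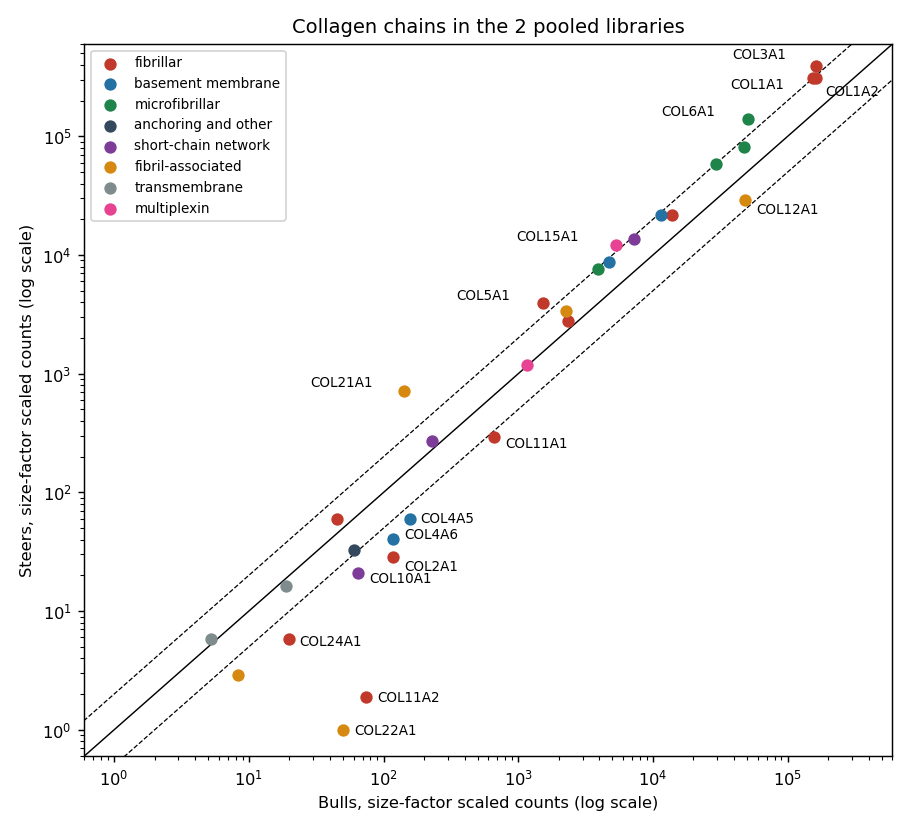
Size-factor scaled counts of the 32 collagen chains with more than 3 counts in a library, bulls on the x axis and steers on the y axis, both on a log scale, with 1 point per chain coloured by class. The solid line marks equal values and the dashed lines a 2-fold difference. Of the 17 chains with at least 1000 counts in either library, 16 lie above the solid line and COL12A1 lies below it. Of these 17 chains, 5 lie above the upper dashed line. Chains with fewer counts lie mostly below the lower dashed line.

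Among fibrillar collagens, 3 of the 11 chains were called higher in steers, 4 were called lower and 4 were not called. The chains of types I and III alone made up 71.3% of all collagen counts in steers and 67.4% in bulls. COL3A1, the chain of the thin reticular fibres that surround fat lobules and muscle bundles, had 405713 reads in steers against 154733 in bulls. Its level was 2.41-fold higher in steers, a log2 fold change of 1.27 (interval 1.26 to 1.28). COL1A1 and COL1A2 encode the chains of type I, the main load-bearing collagen. COL1A1 had 323285 against 148046 reads, for a log2 fold change of 1.00 (0.996 to 1.01), at the threshold, where it was called by the scaling used here and not by total counts (0.77), total counts without the collagen genes (0.84) or TMM factors (0.99). COL1A2 had 322757 against 155951 reads, and at 0.93 (0.92 to 0.94) it was not called.

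Type V collagen is built into type I fibres and limits their diameter. COL5A1 rose, with 4091 reads in steers against 1461 in bulls, for a log2 fold change of 1.36 (1.28 to 1.45). Its partner COL5A2 had 22757 against 13243 reads, for a log2 fold change of 0.66 (0.63 to 0.69). COL5A3 had 2918 against 2226 reads, for a log2 fold change of 0.27 (0.19 to 0.35), and neither of them was called.

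The fibrillar chains best known from cartilage were scarce in both pools, and their counts were lower in steers. COL2A1, the main collagen of cartilage, had 30 reads in steers against 113 in bulls, for a log2 fold change of -2.04 (-2.67 to -1.44). COL11A1, a chain of the type XI collagen that is found inside cartilage fibres, had 305 against 638 reads, for a log2 fold change of -1.19 (-1.39 to -0.99). COL11A2, of the same type, had 2 reads in steers against 71 in bulls. The difference was -5.27 on the log2 scale, with a wide interval of -8.35 to -3.37. The minor fibrillar chain COL24A1 had 6 against 19 reads and was called lower at -1.79 (-3.40 to -0.40), and COL27A1, with 62 against 43 reads, was at 0.41 (-0.18 to 1.00). Of a list of chondrocyte and tendon cell genes, 2 were called lower as well, beside 8.13% of all genes tested. Of the 10 listed, 9 were in the table and 8 were tested, and they took 0.0675% of counts in steers against 0.283% in bulls. Most of these counts came from 1 gene, COMP, a matrix protein of cartilage and tendon that binds collagen. COMP had 4459 of the list's 8555 reads in steers and 23516 of 27912 in bulls (log2 fold change -2.52, interval -2.57 to -2.47). TNMD, which marks tendon cells, had 58 against 696 reads (-3.71, -4.12 to -3.32). The other 6 of the 8 were not called, and of all 8 tested 2 lay above 0 and 6 below. MKX had 467 against 382 reads, a log2 fold change of 0.17 (-0.03 to 0.37). SCX, listed as SCXA, had 17 against 28 reads and was at -0.84 (-1.80 to 0.08). ACAN, the large proteoglycan of cartilage, had more counts in steers, 1556 against 825, a log2 fold change of 0.79 (0.67 to 0.92). CHAD had fewer scaled counts in steers, with 1976 against 2433 reads, a log2 fold change of -0.42 (-0.51 to -0.34). HAPLN1 had 22 against 30 reads and was at -0.57 (-1.43 to 0.27). The cartilage gene MATN1 was at 0 in both libraries, as were COL9A1 and COL9A2, while MATN3 had 0 reads in steers against 2 in bulls. The listed gene without a row was SOX9. The part of such cells in the counts of the scarce chains was not tested, and in bulk tissue fewer cells of a type and less RNA per cell cannot be told apart.

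**Figure D2:**
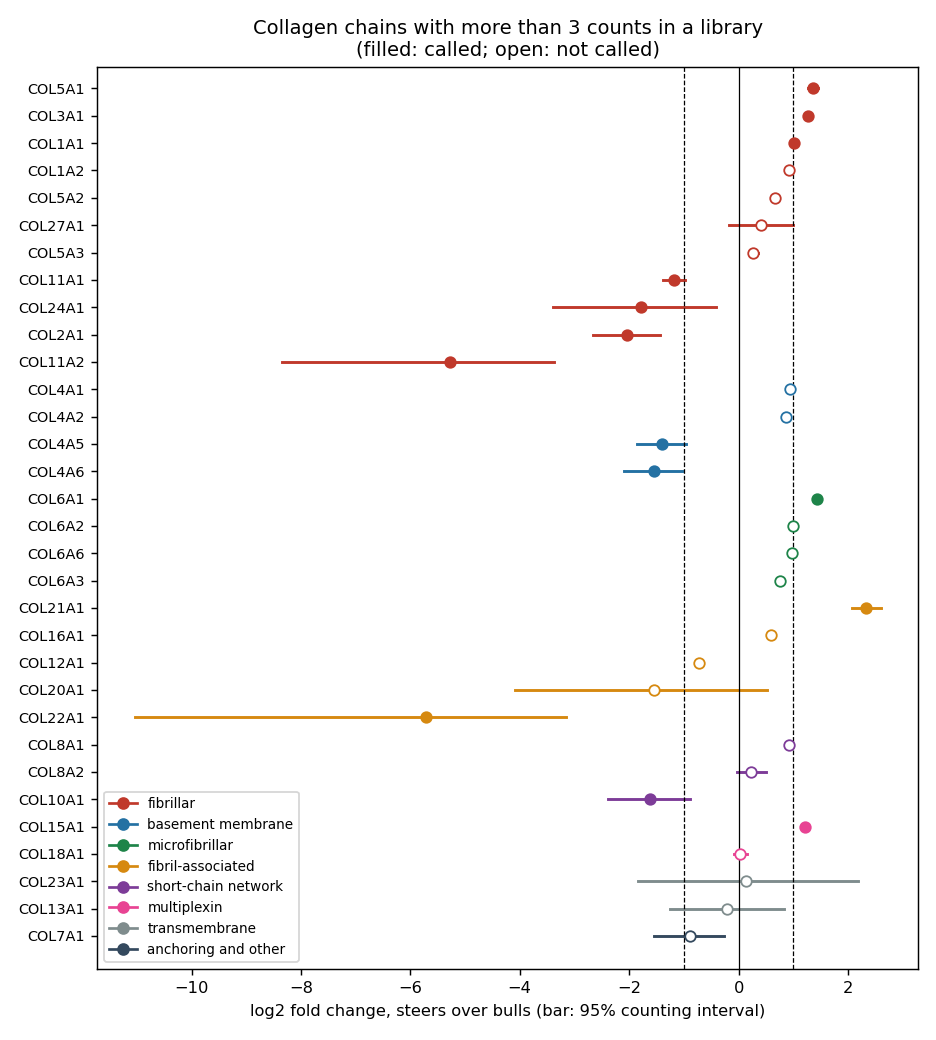
Log2 fold change, steers over bulls, of the 32 collagen chains with more than 3 counts in a library, with the 95% counting interval as a bar and chains grouped by class. Filled points are called and open points are not, dashed lines mark the fold threshold at 1 and -1, and the widest interval is that of COL22A1, with 1 count in steers and 48 in bulls.

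Of the 6 basement membrane chains, all of type IV, 0 were called higher and 2 were called lower in steers. Nearly all type IV counts came from COL4A1 and COL4A2, which together form the type IV network of most tissues. COL4A1 had 22702 reads in steers against 10932 in bulls, for a log2 fold change of 0.93 (0.90 to 0.97), and COL4A2 had 9053 against 4550 reads and one of 0.87 (0.82 to 0.92). Both were short of the fold threshold. COL4A5 and COL4A6, which form a type IV network of smooth muscle and epithelial basement membranes, were both called lower. COL4A5 had 62 against 150 reads, for a log2 fold change of -1.40 (-1.85 to -0.96). COL4A6 had 42 against 113 reads, and its log2 fold change was -1.55 (-2.10 to -1.03). COL4A3 had 2 reads in steers against 0 in bulls, and COL4A4 had 0 and 2, too few to compare. Smooth muscle and mural cell genes (6 of 7 in the table) took 0.0843% of counts in steers against 0.109% in bulls, with 0 called and a median log2 fold change of -0.05. Endothelial genes took 0.0842% and 0.103%, with 0 of 10 called and a median of -0.24. Shares of all counts, here and for the other lists, compare the libraries by total counts, whereas the medians use the size factors. With total counts as the scaling the median of all genes was -0.23. Epithelial genes were few, 372 reads in steers against 82 in bulls over 10 genes. Of the 8 tested, 4 were called higher in steers, beside 4.37% of all genes tested.

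All 4 microfibrillar chains with a row, those of type VI, lay above 0 on the log2 scale, with a median of 0.99, and 1 of them was called. COL6A5, a further chain of type VI that RefSeq lists, had no row under that symbol. Type VI is the collagen most closely tied to adipocytes, whose surface it surrounds. COL6A1 rose, from 48900 counts in bulls to 144658 in steers, a 2.72-fold difference (log2 1.44, interval 1.43 to 1.46). COL6A2 had 61139 against 28104 reads, for a log2 fold change of 0.999 (0.979 to 1.02), so that it lay just under the threshold, and with upper-quartile scaling it was called at 1.01. COL6A3, whose cleaved end is the adipose signal endotrophin, had 84180 against 45783 reads, for a log2 fold change of 0.76 (0.74 to 0.77). COL6A6, a chain related to COL6A3, had 8002 against 3717 reads and one of 0.98 (0.93 to 1.04).

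The fibril-associated chains spread the widest, from COL22A1 to COL21A1. Of 9 listed chains, 7 were tested, 1 was called higher, 1 lower and 5 were not called. COL12A1, which coats fibres in dense connective tissue such as tendon and fascia, had 30393 reads in steers against 46249 in bulls. Its log2 fold change of -0.73 (-0.75 to -0.71) did not reach the threshold, but it was the one abundant chain with fewer scaled counts in steers. COL21A1 rose 5.03-fold in steers, with 745 against 136 reads, for a log2 fold change of 2.33 (2.07 to 2.61), the highest among the chains with a fold change. COL16A1 had 3543 against 2159 reads, for a log2 fold change of 0.59 (0.51 to 0.67). COL22A1, which is known from the junction of muscle and tendon, had 1 count in steers and 48 in bulls and was called lower at -5.71 (-11.04 to -3.16). COL20A1 had 3 against 8 reads, COL19A1 had 0 and 1, and the cartilage chain COL9A3 had 0 and 2. The summed share of these chains in collagen counts was 2.35% in steers and 7.14% in bulls, nearly all of it COL12A1 at 2.06% and 6.79%. COL14A1, a further chain of this class, had no row under that symbol, so the share leaves it out.

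The remaining chains belong to small classes. The multiplexins lie in basement membrane zones, and of them COL15A1 rose, with 12727 reads in steers against 5071 in bulls, for a log2 fold change of 1.21 (1.16 to 1.25). With total counts as the scaling COL15A1 was at 0.97 and not called. COL18A1, the precursor of endostatin, had 1238 against 1115 reads, for a log2 fold change of 0.03 (-0.09 to 0.15), which turned to -0.21 with total counts. Of the short-chain network collagens, COL8A1, a chain made by cells of the vessel wall, had 14250 against 6881 reads and was at 0.93 (0.89 to 0.97). COL8A2 had 283 against 221 reads and was at 0.23 (-0.02 to 0.50). COL10A1, the marker of hypertrophic cartilage, had 22 against 62 reads and was called lower at -1.62 (-2.39 to -0.89). The transmembrane chains COL13A1 (17 against 18 reads), COL23A1 (6 and 5) and COL25A1 (1 and 0) and the anchoring fibril chain COL7A1 (34 and 58) were not called. COL17A1 and COL28A1 had no row under these symbols. Of the scalings tried, COL7A1 was called lower with total counts, at -1.13, and with total counts without the collagen genes, at -1.06.

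**Figure D3:**
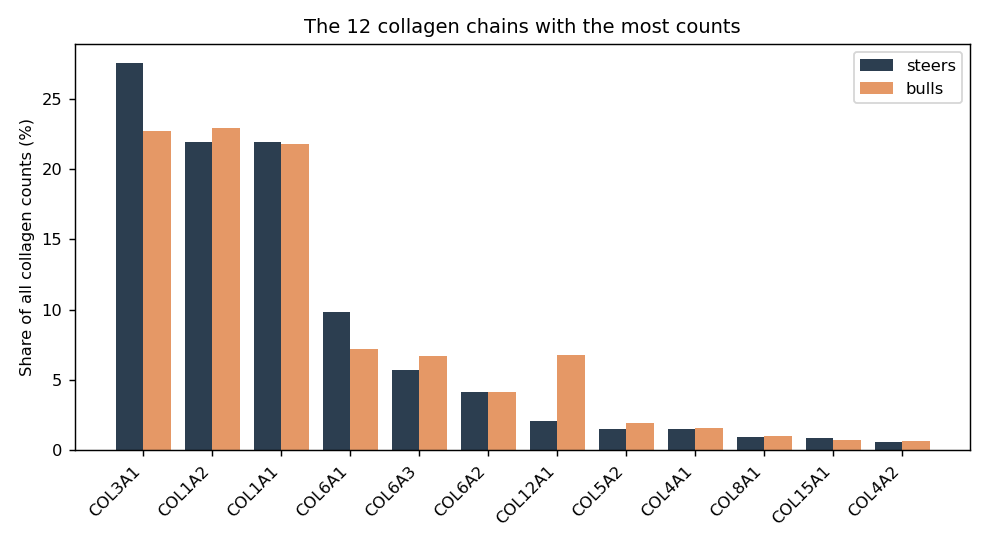
Share of all collagen counts (%) taken by each of the 12 chains with the most counts, with 1 bar for the pooled library of steers and 1 for that of bulls. COL3A1 took 27.5% in steers and 22.7% in bulls, COL6A1 9.81% and 7.18%, and COL12A1 2.06% and 6.79%.

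Ratios between chains within a library need no scaling. The ratio of COL1A1 to COL1A2 counts was 1.00 in steers (interval 0.997 to 1.01) and 0.949 in bulls (0.943 to 0.956). Although these intervals do not overlap, the ratio moved by only 1.05-fold, so the type I chains differed between the libraries by nearly the same factor. The ratio of COL4A1 to COL4A2 was 2.51 (2.45 to 2.57) in steers and 2.40 (2.32 to 2.49) in bulls, with overlapping intervals. For COL4A5 to COL4A6 it was 1.48 (0.982 to 2.24) and 1.33 (1.03 to 1.71), also overlapping.

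Other types kept their proportions less closely. COL5A1 to COL5A2 stood at 0.180 (0.174 to 0.186) in steers and 0.110 (0.104 to 0.117) in bulls, a 1.63-fold difference. In type VI the ratio of COL6A1 to COL6A2 was 2.37 (2.34 to 2.39) in steers and 1.74 (1.72 to 1.77) in bulls, whereas that of COL6A3 to COL6A2 was lower in steers, 1.38 (1.36 to 1.39) against 1.63 (1.61 to 1.65). COL8A1 to COL8A2 was 50.4 (44.8 to 56.8) in steers and 31.1 (27.2 to 35.8) in bulls. For COL11A1 to COL11A2 the ratio was 152.5 (41.9 to 1265) in steers, where it rests on 2 counts of COL11A2, and 8.99 (7.02 to 11.7) in bulls.

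Between types, COL3A1 exceeded COL1A1 by 1.25-fold in steers (1.25 to 1.26) and by 1.05-fold in bulls (1.04 to 1.05). A further pair of ratios was taken after the counts had been seen. COL12A1 stood at 0.0940 of COL1A1 in steers (0.0929 to 0.0951) and at 0.312 in bulls (0.309 to 0.316), and COL21A1 at 0.00230 (0.00214 to 0.00248) and 0.000919 (0.000771 to 0.00109). All ratios are of reads, which grow with the length of a transcript, so only their difference between the libraries can be read, not the proportions of the chains.

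**Figure D4:**
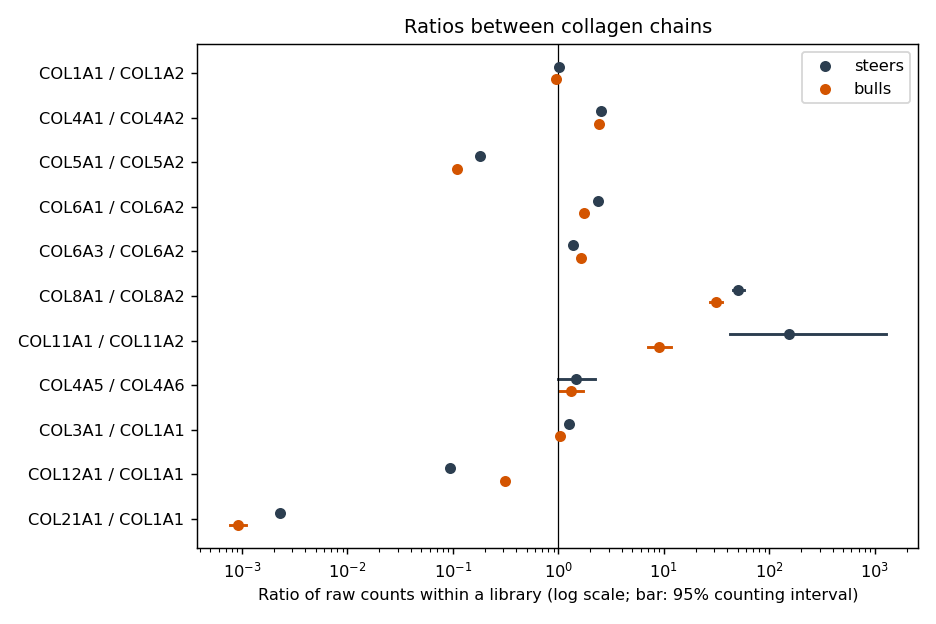
Ratio of raw counts between pairs of collagen chains within each pooled library on a log axis, with 1 point for steers and 1 for bulls and the 95% counting interval as a bar. The points of COL1A1 over COL1A2 lie close together at 1.00 and 0.949, and those of COL12A1 over COL1A1 lie apart at 0.0940 and 0.312.

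Several chains lie next to each other in the cattle genome. According to RefSeq, 7 pairs of collagen genes among all protein-coding genes are direct neighbours, and in 4 of them both had more than 3 counts. The neighbours COL4A1 and COL4A2 had overlapping intervals, and so did COL4A5 and COL4A6. COL3A1 and COL5A2 are neighbours as well, at 1.27 and 0.66, and so are COL6A1 and COL6A2, at 1.44 and 0.999, and in both of these pairs the intervals were apart.

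Collagen chains leave the cell only after hydroxylation, folding with chaperones and trimming of their ends, and are then cross-linked. Of a list of 31 genes for these steps 30 were in the table, with a median log2 fold change of 0.45. Of these 30, 3 were called higher in steers, 2 lower and 25 were not called. Over all genes tested, 4.37% were called higher and 8.13% lower. PCOLCE, which enhances the trimming of the end of fibrillar procollagens, had the most counts of the list, 27778 in steers and 10364 in bulls, and was called higher at 1.30 (1.27 to 1.33). LOXL1, a cross-linking enzyme, had 1906 against 695 reads and rose by 1.33 (1.21 to 1.46). P4HA2, a subunit of prolyl 4-hydroxylase, had 1602 against 645 reads and rose by 1.19 (1.06 to 1.32). The chaperone SERPINH1, at 0.62 (0.57 to 0.67), was not called. LOX, the founding cross-linking enzyme, had 3126 against 4017 reads, for a log2 fold change of -0.48 (-0.55 to -0.42). The genes called lower were P3H2, listed under its older symbol LEPREL1, at -1.07 (-1.30 to -0.85) and COLGALT2, listed as GLT25D2, at -1.09 (-1.53 to -0.66).

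Of 12 collagen receptors 11 were in the table and 0 were called, with a median of 0.20. MRC2, which takes up collagen fragments, had 20280 reads in steers against 9779 in bulls, for a log2 fold change of 0.93 (0.90 to 0.97). Of 10 listed proteases that cut collagen or its fragments, 7 were tested and 0 called, with a median of 0.57. MMP2, the most abundant by counts, was at 0.77 (0.75 to 0.79). MMP14 went the other way, with 2300 against 2805 reads, at -0.41 (-0.49 to -0.33). Of the 7 tested, 5 lay above 0 and 2 below. The collagenases MMP1, MMP8 and MMP13 were at 0 in both libraries.

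Fibroblast genes other than collagens (14 of 15 in the table) took 4.19% of counts in steers against 3.02% in bulls. Of these 14 genes, 12 lay above 0 on the log2 scale, 2 were called higher and 0 lower, with a median of 0.54. The 2 below 0 were PDGFRA and MFAP5. PDGFRA, a marker of fibroblasts and adipocyte precursors, had 1999 against 2565 reads and was at -0.48 (-0.57 to -0.40). MFAP5 was at -0.01 (-0.07 to 0.04). A large part of the list's share was SPARC alone, which binds collagen. SPARC had 273795 of the list's 531474 reads in steers and 119373 of 297955 in bulls (1.08, interval 1.07 to 1.09). By contrast, DCN, a proteoglycan that also binds collagen, was at 0.04 (0.02 to 0.05). The part of fibroblast number in the collagen counts was not tested. The immune lists went the other way, with 10 of 11 T lymphocyte genes (0.00148% of counts in steers against 0.0109% in bulls) and 10 of 12 myeloid genes (0.264% and 0.868%) called lower in steers. Of 7 Schwann cell genes 2 were called higher, and the list took 0.0438% and 0.0356%. Of the muscle genes 1 was called higher and 2 lower, with a median of -0.57, and of the 6 adipocyte genes 1 was called lower, with a median of -0.20. Beside these lists, 4.37% of all genes tested were called higher and 8.13% lower.

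**Figure D5:**
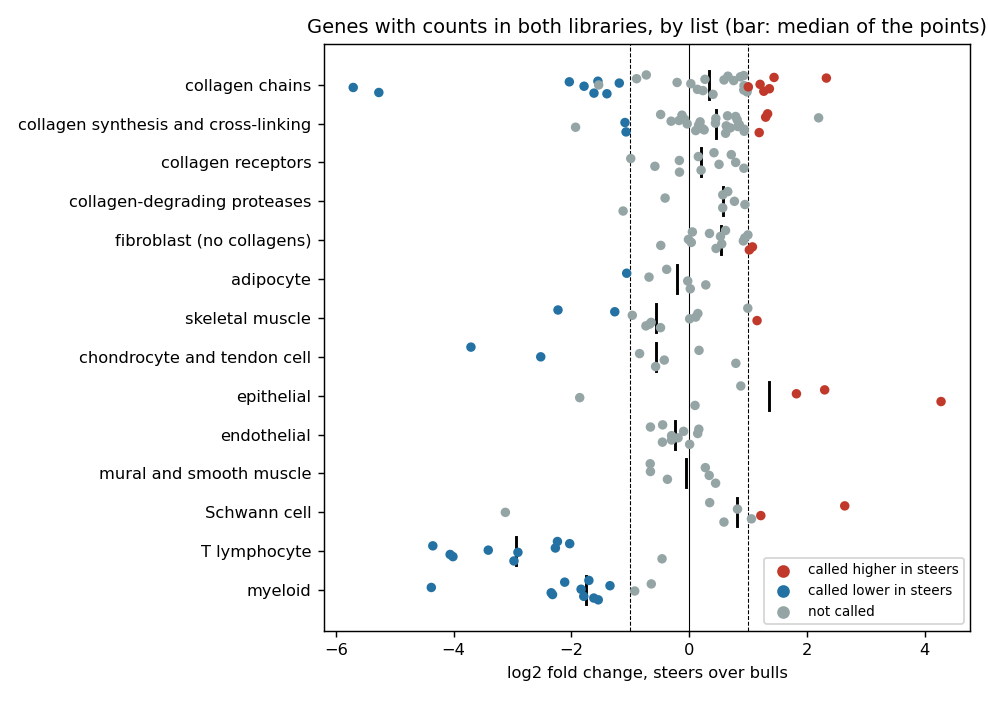
Log2 fold change, steers over bulls, of each gene with counts in both libraries and more than 3 in one, for the collagen chains and 13 gene lists, coloured by call and with the median of the points as a bar. Collagen chains spread from -5.71 for COL22A1 to 2.33 for COL21A1, and most T lymphocyte and myeloid genes lie below -1.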

How the data were processed

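IMF mRNA of 2 pooled libraries, 1 of steers and 1 of bulls, was compared. The authors removed adaptors and low-quality reads, aligned the Ion Proton reads to the bovine genome with MapSplice and deposited raw counts per gene without normalization. The counting program, the annotation and the use of strand are not given in the sources used here. The submitters' processing notes name a human genome build and BWA without their role. The table holds no gene positions or lengths, so levels were not compared per length.

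Size factors came from the median of ratios to the geometric mean of both libraries (1.04 for steers, 0.959 for bulls, numpy 2.4.6). The exact binomial test (scipy 1.17.1, two-sided as the smaller tail doubled) was adjusted by Benjamini-Hochberg over genes with at least 1 count. Medians use a prior of 0.5 counts. Intervals are 95% Clopper-Pearson intervals. Scripts were tested on simulated data. EBSeq, which the study used, was not used here. Alternatives were other scalings (edgeR 4.0.16 under R 4.3.3 for TMM and upper-quartile factors), a filter of 10 counts, a prior of 5, no fold threshold, whole intervals beyond the threshold, and edgeR exact tests with an assumed biological coefficient of variation (0.1, 0.2 or 0.4). The members and gene lists were chosen with earlier results of these data known. All chains called, all with at least 1000 counts and all in a ratio are named with values, and genes of the lists where they were called or the most abundant or where a value bears on a chain. Lists hold synthesis, receptor and protease genes and markers of fibroblasts, adipocytes, muscle, chondrocytes and tendon cells, epithelium, endothelium, mural cells, Schwann cells, T lymphocytes and myeloid cells. The miRNA counts were not used here.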

Additional observations from a re-analysis of the deposited data

How the results depend on the processing

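Of the 32 chains with a fold change, 29 kept their sign under all 5 scalings, and COL8A2, COL18A1 and COL23A1, none of them called, did not. All 8 chains called lower and 4 of the 6 called higher (COL3A1, COL5A1, COL6A1 and COL21A1) were called under each scaling. Total counts as the scaling moved the median of all genes to -0.23 and that of the chains to 0.029, with 4 chains called higher and 9 lower, so that 30.8% instead of 42.9% of the called chains were higher (21.2% instead of 35% of all called genes). With total counts without the collagen genes the median of the chains was 0.10, against -0.15 for all genes. With an assumed biological coefficient of variation between the pools of 0.2, edgeR's exact test called 4 chains higher and 5 lower (all genes 368 and 762), and with 0.4 it called 0 higher and 2 lower, COL11A2 and COL22A1 (all genes 52 and 93). Without the fold threshold 16 chains were higher and 10 lower (all genes 3535 and 3254), and with the whole counting interval beyond the threshold 5 were higher and 4 lower (all genes 376 and 784). The chains that lost their call under these stricter settings were as follows. COL24A1 was not called with an assumed coefficient of variation of 0.1. With 0.2, COL1A1, COL10A1, COL11A1 and COL15A1 were not called either. With the whole interval beyond the threshold, COL1A1, COL4A5, COL10A1, COL11A1 and COL24A1 were not called. No paired analysis was possible because each group had 1 mRNA library. For the same reason no library could be left out. Chains with 3 counts or fewer in both libraries, 7 in all, could not be compared at this depth.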
